A study of Mus musculus with 14 samples.

Results

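Pf4 and 7 further platelet lineage genes (Gp9, Gp1bb, Gp5, Treml1, Itga2b, Sdpr and Mfsd2b) were followed in marrow cells of mice with and without breast tumours. They are 8 of the 11992 genes in the single-cell table of hematopoietic stem and progenitor cells (HSPC), and all 8 were found there. They had been chosen by symbol, with their values in HSPC of PyMT against wild-type (WT) mice in view. The measures were the share of positive cells, the level in positive cells and the level by Gata1 status. Those contrasts are therefore given below as a description, without a test.

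The series asked how marrow cells change when a breast tumour grows elsewhere in the body. HSPC came from 2 mice labelled PyMT and 2 labelled WT. PyMT mice carry the polyoma middle T oncogene and develop mammary tumours; promoter, age and strain background were not given in the labels. Marrow stromal cells came from 1 PyMT and 1 WT library. Bulk RNA came from mesenchymal stem cells (MSC) of mice bearing Py230 tumours, from a mammary tumour line, and of tumour-free mice, with 4 libraries each. A PyMT prefix stands in the title of every HSPC library, yet 2 of the 4 are WT by genotype label and by the per-cell table, and groups follow the genotype. Kit, a defining receptor of these progenitors, had 68.3 and 80.6 CPM in PyMT HSPC and 122 and 146 CPM in WT HSPC. CPM here is the number of unique molecular identifiers (UMIs, counts of captured RNA molecules) of a gene per 1000000 UMIs.

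Megakaryocytes are large marrow cells that shed platelets, and they arise from stem cells through progenitors that also give red cells. Their genes are switched on under GATA and ETS family transcription factors, among them Gata1 and Fli1, well before platelets are made. Pf4 encodes platelet factor 4, a chemokine stored in platelet granules, which in mice also acts back on marrow stem cells. Gp9, Gp1bb and Gp5 encode subunits of the receptor through which platelets hold on to von Willebrand factor. Itga2b encodes CD41, the alpha chain of the fibrinogen receptor, and is also used as an early marker of megakaryocyte commitment. Treml1 encodes a receptor of platelet granule membranes, Sdpr (now Cavin2) a protein of caveolae, and Mfsd2b an exporter of sphingosine-1-phosphate in platelets and red cells.

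The stretches before the starts of 4 members are shown as examples because the members were lower together in PyMT mice. The 4 were picked after the letters were seen, and Gp9 and Sdpr also hold ETS letters, 16 and 39 bases before their starts. Capitals mark the letters searched. For GATA these were AGATAA, its close form AGATAG, the version TGATAA with another first letter, and lastly the version TGATAG; for ETS they were GGAAG. Both strands were searched, so reverse complements appear too. The last letters of GGAAG can begin AGATAA, but no match overlapped another in the members' windows. The sequences are from RefSeq (GRCm38.p6), 250 bases each, written 5′ to 3′ on the strand of the gene. They lie at chr5:90772185-90772434 (plus strand) for Pf4, chr16:18622404-18622653 (minus) for Gp1bb, chr16:30310782-30311031 (minus) for Gp5 and chr11:102469884-102470133 (minus) for Itga2b. The genes lie at chr5:90772435-90773383 (Pf4), chr16:18620317-18622403 (Gp1bb), chr16:30307685-30310779 (Gp5) and chr11:102453297-102470122 (Itga2b). The other 4 lie at chr6:87778072-87779768 (Gp9, plus), chr17:48359916-48367176 (Treml1, plus), chr1:51289126-51302960 (Sdpr, plus) and chr12:4862440-4874359 (Mfsd2b, minus).
Pf4: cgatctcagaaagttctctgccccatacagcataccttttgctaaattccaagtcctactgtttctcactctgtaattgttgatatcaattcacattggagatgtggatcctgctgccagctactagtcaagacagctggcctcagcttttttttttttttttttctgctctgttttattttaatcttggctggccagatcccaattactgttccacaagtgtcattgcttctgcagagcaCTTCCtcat
Gp1bb: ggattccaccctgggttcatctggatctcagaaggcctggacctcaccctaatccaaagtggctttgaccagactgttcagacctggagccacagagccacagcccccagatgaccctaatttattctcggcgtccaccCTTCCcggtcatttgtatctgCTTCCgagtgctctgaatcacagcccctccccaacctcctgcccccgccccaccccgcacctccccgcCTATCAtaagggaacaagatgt
Gp5: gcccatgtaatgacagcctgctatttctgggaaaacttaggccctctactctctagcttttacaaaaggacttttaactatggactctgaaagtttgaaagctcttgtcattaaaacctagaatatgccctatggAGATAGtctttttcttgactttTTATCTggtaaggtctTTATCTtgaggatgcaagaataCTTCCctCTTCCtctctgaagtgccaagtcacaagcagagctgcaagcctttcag
Itga2b: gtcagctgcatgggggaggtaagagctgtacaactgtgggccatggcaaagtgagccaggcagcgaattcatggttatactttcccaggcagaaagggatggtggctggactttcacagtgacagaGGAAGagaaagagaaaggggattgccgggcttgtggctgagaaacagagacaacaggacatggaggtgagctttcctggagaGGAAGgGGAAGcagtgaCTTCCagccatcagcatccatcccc
All 8 members matched a promoter entry, Sdpr under the symbol Cavin2. The window searched also held the 50 bases after the start, 300 bases in all. GATA letters stood in 3 of the 8 member windows, against 29.8% of all 32851 windows. Gp5 had 3 copies, at 115, 93 and 77 bases before its start, Gp1bb had 1 at 22 bases before it, and the Pf4 copy lay 36 bases after the start, past the printed stretch. ETS letters stood in 7 of 8 member windows, all but Mfsd2b, against 71.4% of all windows. Itga2b had 4 copies, at 124, 42, 36 and 25 bases before its RefSeq start at chr11:102469883. That is also where its coding transcript starts in GENCODE M21, the annotation behind the gene extents above. The wider extent given for Itga2b holds nearly all of the printed stretch. A match describes the letters only.

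In HSPC, all 8 members were lower in PyMT than in WT mice, and Pf4 was the member with the largest difference. Pf4 had 107 and 127 CPM in the PyMT mice, against 439 and 412 CPM in the WT mice. The means were 117 ± 14.3 and 426 ± 18.6 CPM (SD, n = 2 each), a log2 ratio of -1.87. Both PyMT values lay well below both WT values. Pf4 UMIs were found in 10.5% and 10.8% of PyMT cells, against 30.1% and 26.8% of WT cells. All 8 members had a lower share of positive cells in both PyMT mice, beside 50.5% of all genes. The exact 95% binomial intervals were 9.49% to 11.5% and 9.95% to 11.6% in PyMT, and 28.5% to 31.6% and 24.99% to 28.7% in WT, and cover counting error only. A Pf4-positive cell held 8.08 and 5.92 UMIs on average in PyMT mice, against 10.9 and 11.4 UMIs in WT mice. The richest single cell held 296 and 131 Pf4 UMIs in PyMT mice, against 344 and 345 UMIs in WT mice.

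The subunits of the von Willebrand factor receptor were lower in PyMT mice as well. Gp9 had 24.5 and 27.3 CPM in PyMT mice, against 51.2 and 47.1 CPM in WT mice. Gp1bb had 12.8 and 18.7 CPM in PyMT mice, against 33.9 and 28.8 CPM in WT mice. Gp5 had 18.1 and 28.4 CPM in PyMT mice, against 50.6 and 44.8 CPM in WT mice. For each of the 3 genes the higher PyMT mouse stayed below the lower WT mouse. The log2 ratios of the means were -0.92 for Gp9, -0.99 for Gp1bb and -1.04 for Gp5. Gp1bb overlaps Sept5 and another gene on the same strand, so its UMIs may partly be theirs.

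Itga2b, the fibrinogen receptor chain, had 75.5 and 86.4 CPM in PyMT mice, against 164 and 136 CPM in WT mice. Treml1, the granule membrane receptor, had 5.88 and 5.72 CPM in PyMT mice, against 16.2 and 13.6 CPM in WT mice. Treml1 therefore differed by -1.36 on the log2 scale and Itga2b, the smallest difference of the 8, by -0.89. Sdpr, the caveolar protein, had 15.5 and 18.5 CPM in PyMT mice, against 34.3 and 41.4 CPM in WT mice. Mfsd2b, the lipid exporter, had 11.7 and 13.9 CPM in PyMT mice, against 29.9 and 27.9 CPM in WT mice. Here too the groups did not overlap, with log2 ratios of -1.15 for Sdpr and -1.18 for Mfsd2b.

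**Figure D1:**
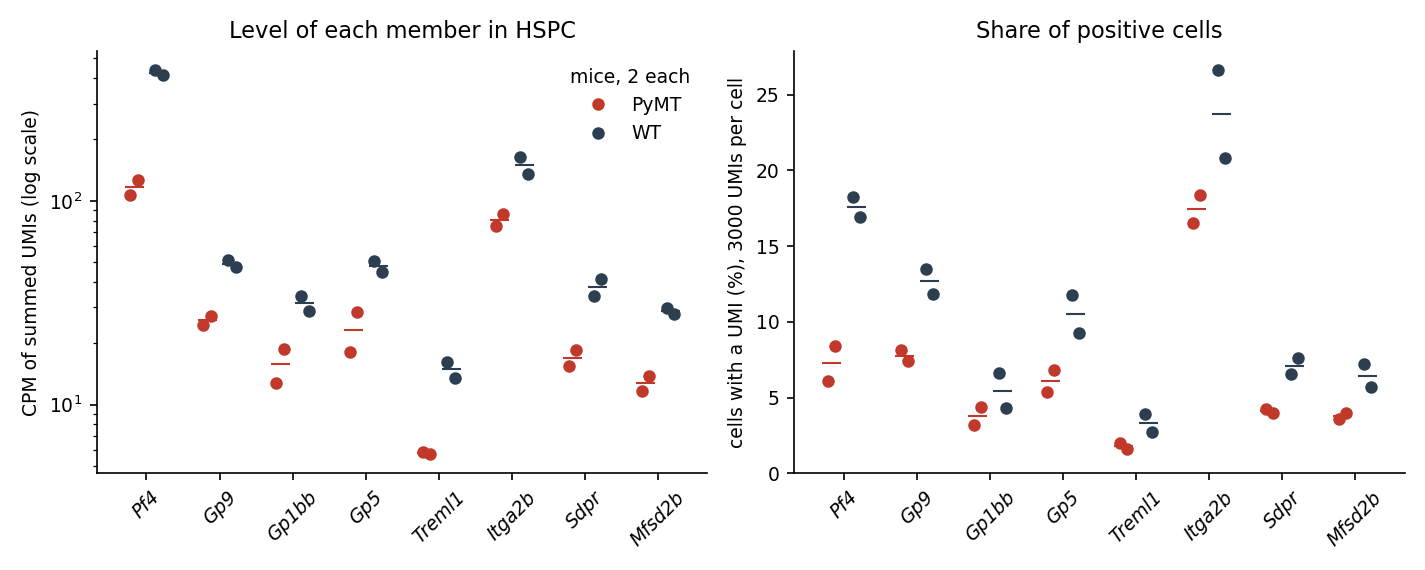
Left, CPM of the UMIs summed over the HSPC of each mouse, on a log axis; right, percent of cells with a UMI after every cell was thinned to 3000 UMIs. Each point is a mouse (2 PyMT, 2 WT) and each line a group mean; on the left all 8 members lie lower in both PyMT mice, with Pf4 at 107 and 127 CPM against 439 and 412 CPM, and on the right Gp1bb overlaps.

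The background in this comparison was wide. Over the 11759 genes that passed the filter on low counts, CPM lay lower in PyMT without overlap for 45.7%, so the 8 of 8 members are read as a description only. The median log2 ratio was -1.10 over the members (range -1.87 to -0.89) and -0.14 over all genes. After scaling with TMM, which centres the libraries on their common genes, the medians were -0.98 and -0.01. The 4 libraries held 16365550 to 28570481 UMIs in 2210 to 5608 cells, with a median of 4257 to 7149 UMIs per cell. The PyMT 2 library was the shallowest per cell. Cell barcodes shared by a pair of libraries numbered 8 to 23.

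Several marker lists differed between the genotypes over all HSPC as well, those of other cells and that of mature platelets and megakaryocytes. Granulocyte-monocyte markers summed to 11143 and 8334 CPM over 13 of 14 genes in PyMT mice, against 7415 and 3378 CPM in WT mice. Mature neutrophil markers (5 of 7 genes) reached 22.8 and 8.74 CPM in PyMT mice, against 7.98 and 4.34 CPM in WT mice, and T and NK cell markers (3 of 7) 666 and 709 CPM in PyMT, against 658 and 579 CPM in WT. Lower in both PyMT mice were stem cell markers (12 of 12), with 417 and 538 CPM against 619 and 743 CPM in WT mice. Erythroid genes (16 of 21) had 756 and 1075 CPM in PyMT mice, against 1323 and 1961 CPM in WT mice, and mature platelet and megakaryocyte markers (7 of 9) 127 and 163 CPM in PyMT, against 258 and 250.5 CPM in WT. Lymphoid markers and the markers of basophils, mast cells and eosinophils overlapped between the groups. No gene of these lists that the table held was at 0 in any mouse, and the part of this shift in the members' values was not tested.

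Depth per cell was then made equal by thinning each cell to 3000 UMIs, which left out 214 and 1467 PyMT cells and 102 and 42 WT cells. The loss was not even over cell types. Stem-like cells (cluster 8, described below) had a median of 2581 UMIs in PyMT 2, under that limit. Their median was 3367.5 UMIs in PyMT 1, and 3873 and 4239 UMIs in WT mice. Thinning thus also changed the mix of cells in PyMT 2, and the part of this in the thinned values was not tested. Pf4 was then found in 6.11% and 8.43% of PyMT cells, against 18.2% and 16.9% of WT cells. The median log2 ratio of CPM over the members was -0.86, with all 8 lower and not overlapping (45% of all genes were lower without overlap). For the share of positive cells, 7 of 8 did not overlap (44.8% of all genes). The exception was Gp1bb, with 3.19% and 4.35% of PyMT cells against 6.60% and 4.29% of WT cells. UMIs per positive thinned cell had a median log2 ratio of -0.09 over the members and -0.001 over all genes. They were lower in PyMT for 7 of 8 members, and without overlap for 4 of 8 (Gp9, Gp5, Sdpr and Mfsd2b), beside 21.4% of all genes. Mfsd2b, for example, had 1.21 and 1.20 UMIs in PyMT mice, against 1.30 and 1.34 UMIs in WT mice. Pf4 itself had 5.52 and 4.80 UMIs per positive thinned cell in PyMT mice, against 6.40 and 5.49 UMIs in WT mice, so its groups overlapped.

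The level inside positive cells depended on how it was measured. As UMIs per positive cell without thinning, all 8 members were lower in PyMT without overlap, beside 32.1% of all genes. Their median log2 ratio was -0.40, beside -0.03 over all genes. As CPM counted only in cells with a UMI of the gene, 1 of 8 members was lower without overlap, beside 1.04% of all genes. By that measure Pf4 had 1036 ± 99.6 CPM in PyMT and 1421 ± 54.2 CPM in WT (SD, n = 2 each), a log2 ratio of -0.46. For the other 7 members the CPM in positive cells overlapped, with log2 ratios between -0.13 for Itga2b and 0.22 for Treml1. The median over all 8 members was -0.002, beside 0.16 over all genes, so a ratio near 0 lay below that of the middle gene. Both measures depend on depth, and PyMT 2 was the shallowest library per cell.

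Free RNA in droplets gives UMIs in cells that do not express a gene, so lymphoid-like cells served as a reference for the shares. Those cells (cluster 1, named from Dntt, Flt3, Il7r and other lymphoid markers) had a median of 5413 UMIs, beside 5446.5 UMIs in cluster 7, where the members were high. Pf4 UMIs were found in 3.97% and 3.14% of PyMT lymphoid-like cells, against 17.8% and 13.8% of WT lymphoid-like cells. At 3000 UMIs per cell the shares were 1.48% and 2.25% in PyMT, against 7.07% and 6.71% in WT. Pf4 shares in lymphoid-like cells thus also differed by genotype, and the part of free RNA in the Pf4 shares above was not tested. Without thinning, Gp5 went the other way there, with 1.25% and 1.35% in PyMT against 0.637% and 1.04% in WT. So did Mfsd2b, with 1.25% and 1.05% in PyMT against 0.955% and 0.692% in WT. At 3000 UMIs per cell the groups of both overlapped. The remaining members had lower mean shares in PyMT lymphoid-like cells. Gp9 was found in 4.64% and 3.00% of the thinned lymphoid-like cells of PyMT mice and in 5.47% and 3.53% of those of WT mice, beside 8.12% and 7.44% of all PyMT cells and 13.5% and 11.9% of all WT cells. Treml1 was found in 0 of 474 and 533 thinned lymphoid-like cells of PyMT mice and 0 of 311 of WT 1, which allows shares of up to 0.633%, 0.563% and 0.965%, and in 0.707% of those of WT 2. Over all thinned cells, Treml1 was found in 2.01% and 1.59% in PyMT mice, against 3.92% and 2.72% in WT mice. Gp5 reached at most 0.75% of the thinned lymphoid-like cells. Over all thinned cells it was found in 5.37% and 6.81% in PyMT mice, against 11.8% and 9.27% in WT mice. The part of free RNA in these shares was not tested either.

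Gata1-positive cells, those with at least 1 UMI of this megakaryocyte and red cell transcription factor, carried a large part of the members' UMIs. They numbered 347 (9.63%) and 453 (8.08%) in PyMT mice, against 551 (16.1%) and 266 (12.04%) in WT mice, and held 64.8% and 50.5% of all Pf4 UMIs in PyMT, against 65.4% and 64.9% in WT. The shares were lowest for Gp9, at 36.0% and 31.4% in PyMT, against 47.0% and 46.7% in WT. For Itga2b they were 44.5% and 35.4% in PyMT, against 53.8% and 48.6% in WT. Summed over the 8 members the class held 55.7% and 44.3% of UMIs in PyMT, against 61.2% and 59.97% in WT. Pf4 had 804 CPM in Gata1-positive and 41.1 CPM in Gata1-zero cells of PyMT 1, and 747 and 68.7 CPM in PyMT 2. The WT values were 1673 CPM in Gata1-positive and 183 CPM in Gata1-zero cells of WT 1, and 1881 and 169 CPM in WT 2. Every mouse thus had several times more Pf4 in the Gata1-positive class.

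The other 7 members followed Gata1 in every mouse as well. Itga2b had 391 and 357 CPM in Gata1-positive against 45.8 and 61.0 CPM in Gata1-zero PyMT cells, and 513 and 465 CPM against 91.1 and 81.6 CPM in WT cells. Mfsd2b had 83.8 and 87.9 CPM against 4.86 and 6.96 CPM in PyMT cells, and 113 and 138 CPM against 12.7 and 9.62 CPM in WT cells. On the edgeR scale the log2 differences between the classes ran from 2.31 for Gp9 to 3.62 for Mfsd2b. The median over members was 3.28, beside 0.005 over the 10885 genes tested, of which 14.8% were called higher. As this contrast chose the members, nothing more is read from it.

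Between genotypes, the differences were smaller inside the Gata1-positive class than outside it. In Gata1-positive cells the median log2 ratio of PyMT over WT was -0.48 over the members and -0.05 over all genes; all 8 lay lower without overlap, beside 27% of all genes. In Gata1-zero cells it was -0.92 over the members and -0.14 over all genes, with 8 of 8 beside 45.7%. Pf4 kept the widest gap in Gata1-positive cells at -1.20, and the narrowest of the 8 there was -0.26. A Gata1-zero cell is one in which no Gata1 UMI was counted, and it may still express the gene. Among thinned cells with 5 or more Pf4 UMIs, Gata1 was found in 42.9% and 28.4% in PyMT mice, against 35.3% and 32.1% in WT mice. Those shares are after thinning, whereas the classes here were set without it. How far missed Gata1 UMIs and the mix of cells enter the class sizes, UMI shares and ratios was not tested.

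Clustering of the cells without the 8 members and without Gata1 placed the members in a narrow set of cells. Clusters 7 and 9 were megakaryocyte-erythroid progenitor-like, from markers such as Klf1, Epor, Gfi1b, Zfpm1, Vwf and Itgb3, and most cells of cluster 9 were in S or G2M phase. Together they held 368 (10.2%) and 549 (9.79%) of the cells of the PyMT mice, against 585 (17.1%) and 304 (13.8%) of those of the WT mice. The share of cells in these clusters was thus lower in both PyMT mice, which was not tested. Pf4 averaged 1846 ± 718 CPM in cluster 7 and 1741 ± 768 CPM in cluster 9 (SD over 4 mice), against 11.9 to 57.1 CPM in the other 7 clusters with at least 50 cells in every mouse. Between 88.9% and 92.8% of a mouse's Pf4 UMIs lay in clusters 7 and 9. The wide spread of Pf4 over the 4 mice follows the genotypes, given next.

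The members differed in how far they reached outside these clusters. Clusters 7 and 9 held 49.3% to 60.6% of Gp9 UMIs and 55.1% to 68.8% of Itga2b UMIs, and 77.6% to 87.5% of Treml1 UMIs. Itga2b averaged 71.8 CPM in cluster 0 but 10.2 CPM in lymphoid-like cluster 1. In the stem-like cluster 8, named from Procr, Mecom, Hlf and Mllt3, Gp9 averaged 52.2 ± 10.9 CPM, Sdpr 26.4 ± 9.88 CPM and Gp1bb 3.70 ± 0.660 CPM. Pf4 in the stem-like cells had 22.5 and 30.4 CPM in PyMT mice, against 83.7 and 91.6 CPM in WT mice. Mfsd2b averaged 102 CPM in cluster 7, 148.1 CPM in cluster 9 and 225 CPM in cluster 10, a set of 86 cells led by the red cell genes Car1 and Klf1. Sdpr was at 0 UMIs in cluster 10, which had fewer than 50 cells in every mouse.

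**Figure D2:**
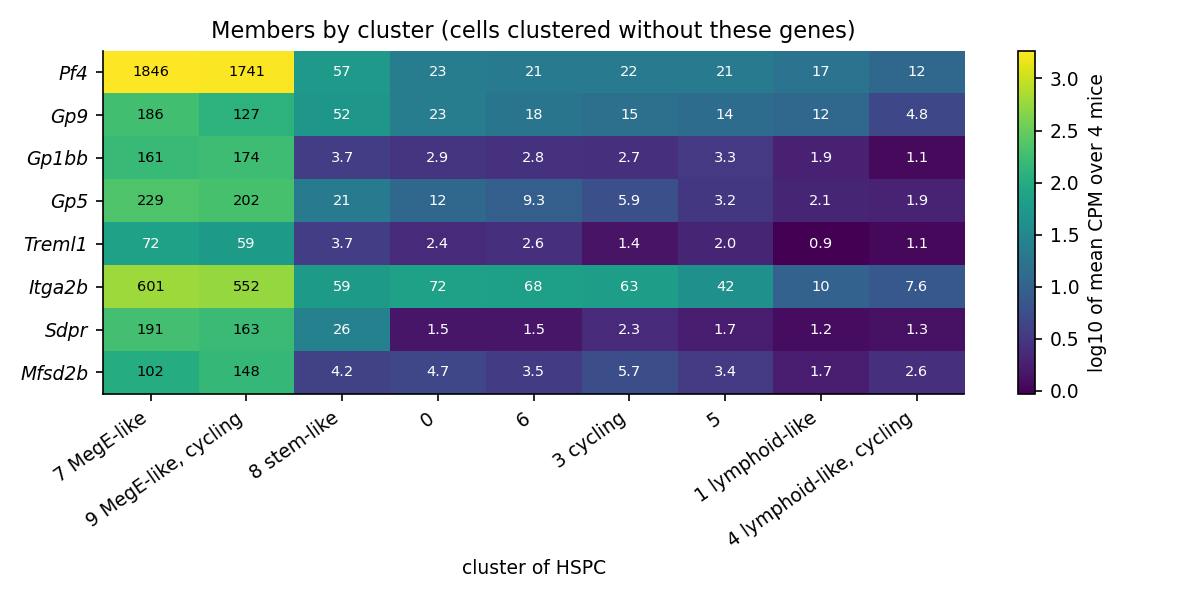
Mean CPM over 4 mice of each member (down) in each HSPC cluster with at least 50 cells in every mouse (across); colour is log10 of the mean CPM and the number in each field is that mean. MegE-like stands for megakaryocyte-erythroid progenitor-like. Pf4 reaches 1846 and 1741 CPM in clusters 7 and 9 and 57.1 CPM in stem-like cluster 8.

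Inside clusters 7 and 9 the widest gap between the genotypes was that of Pf4. Pf4 had 1168 and 1237 CPM there in PyMT mice, against 2390 and 2408 CPM in WT mice, a log2 ratio of -0.997. It was found in 41.6% and 48.3% of those cells in PyMT mice, against 63.4% and 71.4% in WT mice. The other 7 members had log2 ratios from -0.49 for Treml1 to -0.15 for Gp1bb. Gp5 had 175 and 229 CPM there in PyMT mice, against 244 and 225 CPM in WT mice, so its groups overlapped, as did those of Gp1bb. In all, 6 of 8 members lay lower without overlap inside these clusters, beside 23.9% of all genes. The median log2 ratio was -0.27 over the members and -0.04 over all genes.

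Outside clusters 7 and 9 the levels were low and all 8 members lay lower in PyMT without overlap, beside 45.6% of all genes. The median log2 ratio was -0.92 over the members and -0.14 over all genes. Pf4 had 10.9 and 15.5 CPM there in PyMT mice, against 37.8 and 36.3 CPM in WT mice. In lymphoid-like cells, the reference for free RNA, it had 5.64 and 7.26 CPM in PyMT mice, against 30.2 and 23.3 CPM in WT mice. The part of free RNA in the levels outside these clusters was not tested. Itga2b had 31.4 and 42.7 CPM outside clusters 7 and 9 in PyMT mice, against 61.5 and 52.4 CPM in WT mice. These values pool several clusters. In cluster 0, Sdpr averaged 1.81 CPM in PyMT and 1.18 CPM in WT, and Mfsd2b 4.82 and 4.59 CPM. The remaining members had lower means in PyMT in that cluster. Cluster 10, high in Mfsd2b, made up 0.278% and 0.214% of PyMT cells, against 1.02% and 1.31% of WT cells. How far the mix of cells enters the pooled values was not tested.

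**Figure D3:**
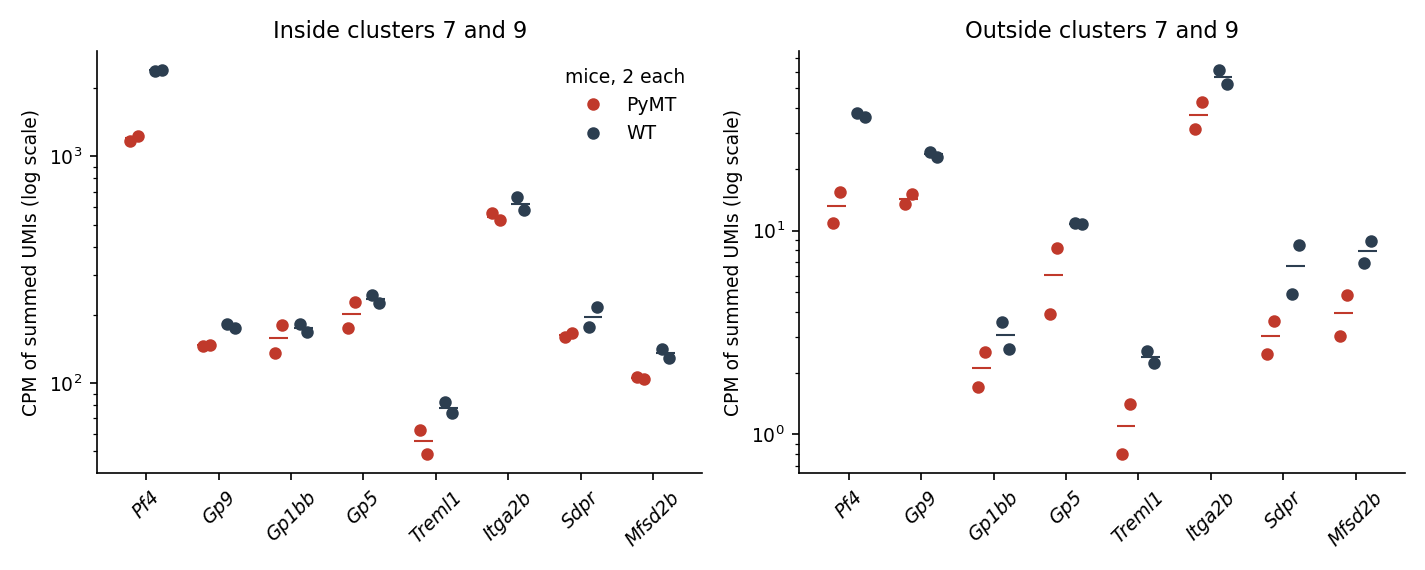
CPM of each member inside (left) and outside (right) the megakaryocyte-erythroid progenitor-like clusters 7 and 9, on log axes with different ranges; each point is a mouse and each line a group mean. Inside, Pf4 lies at 1168 and 1237 CPM in PyMT against 2390 and 2408 CPM in WT, while Gp1bb and Gp5 overlap; outside, all 8 members are lower in PyMT.

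Few cells carried most of the Pf4 RNA, and less so for the other members. The 1% of cells richest in Pf4 held between 51.7% and 75.5% of a mouse's Pf4 UMIs, against 15.98% to 20.1% for Itga2b and 14.8% to 21.2% for Gp9. The range was 17.8% to 28.2% for Gp5 and 20.4% to 33.8% for Mfsd2b. It was 31.0% to 45.9% for Gp1bb, 29.2% to 45.1% for Sdpr and 34.0% to 56.5% for Treml1. At 3000 UMIs per cell, 1.65% and 2.13% of PyMT cells held 5 or more Pf4 UMIs, against 4.01% and 3.60% of WT cells. Cells with exactly 1 Pf4 UMI made up 3.63% and 5.29% in PyMT, against 11.1% and 10.3% in WT.

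Members were found together in the same cells. Among cells with 5 or more Pf4 UMIs, 92.9% and 90.9% of PyMT cells and 94.0% and 89.7% of WT cells also had Itga2b. In cells without Pf4 the Itga2b shares were 14.3% and 15.2% in PyMT and 21.5% and 15.7% in WT. Gp1bb was found in 66.1% and 78.4% of the Pf4-rich PyMT cells and in 63.9% and 61.5% of the Pf4-rich WT cells. Procr, a stem cell receptor, was found in 1.79% of the Pf4-rich cells of PyMT 1. It was found in 0 of 88 of PyMT 2 and 0 of 133 and 78 of the WT mice, which allows shares of up to 3.41%, 2.26% and 3.85%. Ppbp, a platelet chemokine of later megakaryocytes, was found in 5.13% to 10.2% of them. At least 3 of the 8 members were detected in 5.70% and 6.45% of PyMT cells, against 11.5% and 9.41% of WT cells. All 8 at once were detected in 4 and 0 PyMT cells, against 6 and 4 WT cells.

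Across cells, the members closest to Pf4 were Gp1bb and Sdpr. The mean within-mouse Pearson correlation over 4 mice (log of UMIs per 10000, over the 2210 to 5608 cells of a mouse, which share a library and its depth) was 0.61 with Gp1bb, 0.53 with Sdpr and 0.47 with Gp5 and with Itga2b. It was 0.42 with Treml1, 0.35 with Mfsd2b and 0.33 with Gp9. Over all pairs of members it ran from 0.26 (Gp9 and Mfsd2b) to 0.61 (Pf4 and Gp1bb). Among genes that are not members, the 10 closest to Pf4 included F2rl2 (0.48), Tuba8 (0.43), Serpine2, Rab27b, Rap1b, Slc14a1, Vwf, Cd9 and Tmsb4x (0.35). F2rl2 encodes a thrombin receptor and Vwf von Willebrand factor. These values are a description.

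Stem-like cells were compared by Procr, which was not itself used to choose the members but is not independent of the Gata1 contrast that was. Cells with at least 1 UMI of Procr, a receptor of blood stem cells, numbered 417 and 568 in PyMT mice and 472 and 326 in WT mice, and were set against Procr-zero cells of the same mice. All 8 members fell in Procr-positive cells, beside 14% of the 10871 genes tested that were called lower (edgeR quasi-likelihood test with mouse as a term, Benjamini-Hochberg adjusted over all genes). Their median log2 fold change was -1.74, beside -0.002 over all genes. Procr-positive cells were shallower, with medians of 5681 and 3415.5 UMIs in PyMT and 5367.5 and 5200 UMIs in WT mice, than Procr-zero cells, with 7349 and 4341 UMIs in PyMT and 6837 and 6994 UMIs in WT mice. Only 11 and 18 PyMT cells and 22 and 10 WT cells were positive for both Procr and Gata1, so the Procr-positive class is nearly all Gata1-zero. How far the members' values here repeat the Gata1 contrast was not tested. The result also depends on the cells compared. Beside all cells outside clusters 7 and 9, every member but Mfsd2b had higher group means in Procr-positive cells. Pf4 had 37.9 CPM (PyMT) and 81.1 CPM (WT) in Procr-positive cells, against 13.2 and 37.1 CPM outside those clusters. For Sdpr these were 11.3 and 23.6 against 3.04 and 6.69 CPM, and for Mfsd2b 3.81 and 6.37 against 3.95 and 7.92 CPM. These differences were not tested.

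Gp1bb fell furthest among the members whose call held under every alternative tried, with 4.58 and 3.60 CPM in Procr-positive against 13.7 and 20.2 CPM in Procr-zero PyMT cells. In WT mice it had 8.10 and 6.25 CPM against 37.5 and 32.1 CPM, and the log2 fold change was -2.22 (SE 0.146, edgeR adjusted p = 1.40e-13). Mfsd2b fell by 2.19 on the log2 scale (SE 0.154, edgeR adjusted p = 7.72e-13) and Gp5 fell by 1.59 (SE 0.121, edgeR adjusted p = 6.62e-12). In each of the 4 mice these 3 genes were lower in the Procr-positive class, and their calls held in all 9 alternatives. At 2 or more Procr UMIs the fitted log2 fold change of Mfsd2b was -11.03, a value that is no bound, since the 64 and 66 PyMT cells and 78 and 51 WT cells of that class held 0 Mfsd2b UMIs.

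Pf4 had 36.6 and 39.2 CPM in Procr-positive against 114 and 135 CPM in Procr-zero PyMT cells, and 98.1 and 64.0 CPM against 486 and 463 CPM in WT cells. It was lower in the Procr-positive class of all 4 mice, with a log2 fold change of -2.32 (SE 0.197, edgeR adjusted p = 0.0064). The Pf4 call was lost without WT 1 (adjusted p = 0.0667) and with Procr-positive cells defined by 2 or more UMIs (0.274); over the 9 alternatives the adjusted p ranged from 8.46e-32 to 0.274. Itga2b fell by 1.01 (SE 0.165, edgeR adjusted p = 0.0190) and lost its call without WT 2 (0.138; range 2.45e-15 to 0.138).

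Treml1 fell by 1.89 (SE 0.215, edgeR adjusted p = 2.84e-08) and lost its call at 2 or more Procr UMIs (adjusted p = 0.0989; range 3.01e-11 to 0.0989). Gp9 and Sdpr had the smallest changes and each lost its call in 2 alternatives. Gp9 had 22.9 and 24.4 CPM in Procr-positive against 24.7 and 27.6 CPM in Procr-zero PyMT cells, and 34.0 and 27.4 CPM against 53.6 and 49.98 CPM in WT cells. Its log2 fold change was -0.54 (SE 0.0959, edgeR adjusted p = 5.25e-05), and -0.09 (adjusted p = 0.758; range 7.89e-07 to 0.758) when classes were set in thinned cells; at 2 or more Procr UMIs it was -0.44 (adjusted p = 0.173). Sdpr fell by 0.78 (SE 0.105, edgeR adjusted p = 6.18e-07); its values were -0.40 (adjusted p = 0.156) with thinned classes and -0.13 (0.814) at 2 or more Procr UMIs, over a range of 5.49e-08 to 0.814.

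Between cells of different cycle phases, Gp9 and Mfsd2b differed and no other member was called. Phases were the authors' own calls per cell. The phases also differed in cell mix: 89.9% of cluster 9 but 1.33% of stem-like cluster 8 were in S or G2M phase. How far the mix of cells enters the phase values of the members was not tested. Gp9 was lower in S than in G1 phase, with a log2 fold change of -0.61 (SE 0.111, edgeR adjusted p = 6.30e-05), and lower in G2M than in G1, at -0.52 (SE 0.0792, edgeR adjusted p = 3.36e-06). Its CPM in G1, S and G2M phase was 28.5, 13.4 and 19.3 in PyMT 1 and 31.0, 27.4 and 17.99 in PyMT 2. It was 59.4, 31.6 and 39.6 in WT 1 and 53.4, 31.5 and 37.7 in WT 2. Gp9 thus stood highest in G1 cells of every mouse.

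Mfsd2b rose in G2M phase, with a log2 fold change of 0.81 over G1 (SE 0.140, edgeR adjusted p = 5.95e-04). Its CPM in G1, S and G2M phase was 10.5, 9.35 and 15.7 in PyMT 1 and 10.96, 16.5 and 20.3 in PyMT 2. It was 27.8, 16.02 and 39.4 in WT 1 and 20.8, 33.0 and 42.2 in WT 2, so G2M was highest in all 4 mice. These calls held in all 7 alternatives. They are 1 of 8 members in S and 2 of 8 in G2M, where 40.2% and 52.7% of the 10757 genes tested were called in either direction. For the remaining members the adjusted p lay between 0.180 and 0.963 in S and between 0.0554 and 0.986 in G2M by the same edgeR test. Gp1bb was the closest, at 0.48 in G2M (SE 0.177, adjusted p = 0.0554), and passed the threshold by DESeq2 (0.0259), without PyMT 2 (0.00564) and without WT 1 (0.00293), over a range up to 0.155.

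Single libraries also decided 3 members in S phase. Without WT 1, Gp1bb had a log2 fold change of 0.74 (edgeR adjusted p = 8.60e-04; range up to 0.635) and Mfsd2b of 0.52 (edgeR adjusted p = 0.0147; range up to 0.918). Without PyMT 2, Gp5 had -0.57 (edgeR adjusted p = 0.00275; range up to 0.788). S and G2M cells were deeper, with medians of 6622 to 10975 UMIs, than G1 cells, with 3592 to 5962 UMIs.

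**Figure D4:**
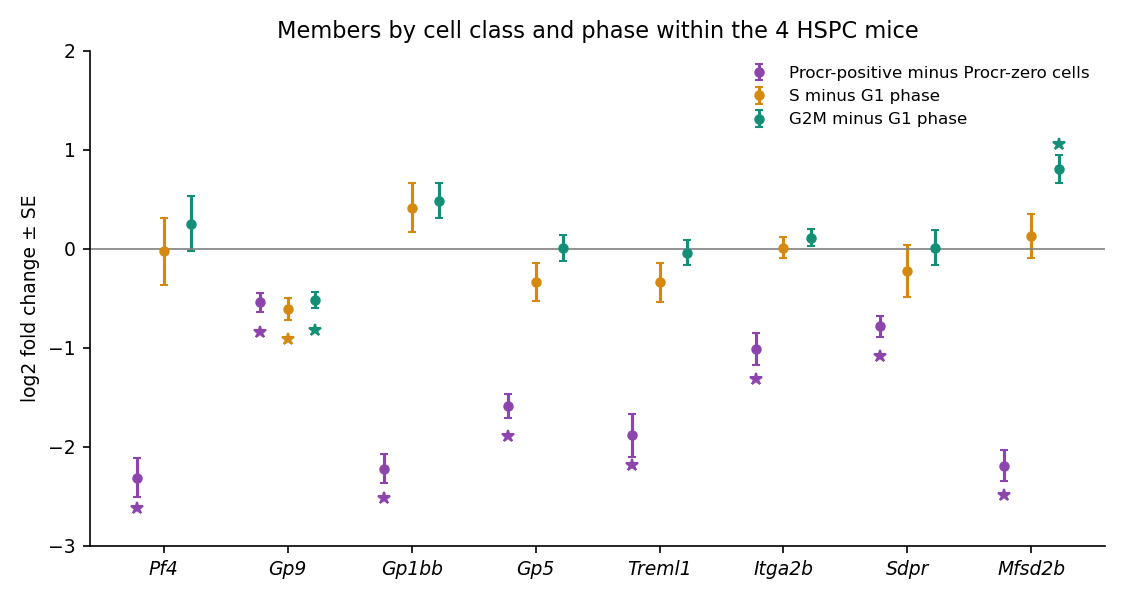
Log2 fold change with its SE for each member, from edgeR fits over the 4 HSPC mice with mouse as a term, for Procr-positive minus Procr-zero cells, S minus G1 and G2M minus G1; stars mark an adjusted p under 0.05 over all genes. All 8 members are lower in Procr-positive cells, from -2.32 (Pf4) to -0.54 (Gp9), Gp9 is lower in S and G2M, and Mfsd2b is higher in G2M at 0.81.

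Other genes of the platelet lineage gave a setting for the members. Between PyMT and WT HSPC, edgeR called 165 genes, 1.4% of those tested (0.85% higher and 0.553% lower). That number rested on single libraries, being 1106 without PyMT 1, 1932 without PyMT 2 and 553 without WT 1. Of 39 other platelet and megakaryocyte genes tested, 0 rose and 6 fell in PyMT, with a median log2 fold change of -0.52. Slc14a1, a urea transporter, had 16.5 and 22.5 CPM in PyMT against 44.7 and 42.4 CPM in WT (-1.05, edgeR adjusted p = 0.0169). Plek, a protein kinase C substrate of platelets, fell by 0.72 (edgeR adjusted p = 0.0233), Nrgn by 0.63 (0.0375) and Cd9, a tetraspanin, by 0.53 (0.0322), and all 4 held in 8 alternatives. Ptgs1, the cyclooxygenase of platelets, fell by 0.58 (edgeR adjusted p = 0.0468), but not without WT 1 (0.0860; range 3.45e-04 to 0.0860).

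Of 18 megakaryocyte transcription factors tested, 0 rose and 4 fell, with a median of -0.25. Zfpm1, the partner of Gata1 also called FOG1, fell by 0.80 (edgeR adjusted p = 0.0233), Gata2 by 0.70 (0.0416) and Meis1 by 0.72 (0.0423). Of 16 erythroid genes tested, 0 rose and 3 fell, with a median of -0.72. Aqp1, a water channel, fell by 1.39 (edgeR adjusted p = 0.00985). Car1, a red cell carbonic anhydrase, fell by 1.97 (edgeR adjusted p = 0.00985), but its call was lost without PyMT 1 (0.194) and without PyMT 2 (0.169), over a range from 1.06e-22 to 0.194. Epor, the erythropoietin receptor, fell by 0.91 (edgeR adjusted p = 0.04997) and lost its call without WT 1 (0.106) and in thinned cells (0.183; range 0.00834 to 0.183). The members' own median on this scale was -0.98.

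In Procr-positive cells the lists held calls in both directions. Of 33 other platelet genes tested there, 12 rose and 10 fell, beside 10.5% and 14% of all genes, with a median of -0.09. Mmrn1 rose by 0.88 (edgeR adjusted p = 3.53e-10) and Esam, an adhesion molecule, by 0.72 (2.44e-07). Serpine2 fell by 1.86 (edgeR adjusted p = 9.20e-11) and F2rl2 by 1.42 (1.42e-05), and all 4 calls held in 9 alternatives. Of 18 transcription factors tested, 6 rose and 5 fell; Gata1 fell by 2.17 (edgeR adjusted p = 4.55e-14) and Meis1 rose by 0.35 (1.41e-07). Of 10 erythroid genes, 3 rose and 4 fell, Klf1 by 1.96 (edgeR adjusted p = 2.05e-08).

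In Gata1-positive cells, 31 of 35 other platelet genes rose and 2 fell, beside 14.8% and 16.1% of all genes. Cd9 rose by 1.61 (edgeR adjusted p = 1.82e-17) and Rab27b, which serves granule release, by 2.78 (1.49e-15). Of 17 transcription factors, 10 rose and 2 fell, and of 15 erythroid genes 12 rose and 1 fell. In S phase, 1 of 33 platelet genes rose and 17 fell relative to G1, beside 21.5% and 18.8% of all genes; in G2M phase 2 rose and 19 fell, beside 25.1% and 27.6%. Of the transcription factors, 0 rose and 14 of 18 fell in S phase, and 4 rose and 7 fell in G2M phase. Erythroid genes rose in 0 and fell in 3 of 11 cases in S phase, and rose in 2 and fell in 3 in G2M phase.

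Outside blood progenitors, Sdpr was the member with a called difference. The 8 bulk MSC libraries held 4301375 to 9811251 reads, and Sdpr had 5.82, 7.68, 14.1 and 14.5 CPM in Py230 libraries, against 32.3, 40.9, 33.1 and 36.8 CPM in tumour-free libraries. All 4 Py230 libraries lay below all 4 tumour-free libraries. The means were 10.5 ± 4.43 and 35.8 ± 3.94 CPM (SD, n = 4 each), and Sdpr fell by 1.75 on the log2 scale (SE 0.237, edgeR adjusted p = 0.00122), a call kept in all 12 alternatives. An antisense gene overlaps Sdpr, and the strand setting of the counting was not given, so reads of the pair cannot be told apart. In bulk cells, fewer cells of a type and less RNA per cell cannot be told apart. Nothing in the labels says that the libraries came from separate animals, so the p-values measure the spread between libraries only.

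The other members were low in bulk MSC. Of the 8, 5 passed the filter on low counts and 1 was called, beside 4.73% of the 16317 genes tested (1.99% higher and 2.74% lower). The 771 genes called became 377, 394 and 500 without tumour-free libraries 1, 2 and 3, and 457 without Py230 library 2. Itga2b had 11.2 ± 2.24 CPM in Py230 and 8.25 ± 1.94 CPM in tumour-free libraries (SD, n = 4 each; edgeR adjusted p = 0.401). Mfsd2b had 4.87 ± 2.26 CPM in Py230 and 2.88 ± 0.712 CPM in tumour-free libraries (edgeR adjusted p = 0.393). Gp5 had 2.002 ± 1.26 CPM in Py230 and 2.86 ± 1.10 CPM in tumour-free libraries (edgeR adjusted p = 0.795). None of these groups was separated by the test, and Gp1bb, with 1.58 ± 1.04 CPM in Py230 and 0.987 ± 0.314 CPM in tumour-free libraries, was not either (edgeR adjusted p = 0.804). Pf4 had 39 reads over the 4 Py230 libraries and 20 over the tumour-free ones, Gp9 had 5 and 7, and Treml1 7 and 26, and none of these was tested. Ptprc, the common marker of blood cells, had 4.40 ± 2.47 CPM in Py230 and 3.72 ± 0.959 CPM in tumour-free libraries.

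Of 33 other platelet genes tested in bulk MSC, 3 rose and 2 fell in Py230. Serpine2, a protease inhibitor, rose by 0.73 (edgeR adjusted p = 0.00189), Itgb3, the partner chain of Itga2b, by 1.42 (0.00214), and Angpt1, a ligand made by marrow stroma, fell by 1.12 (8.98e-05), each in all 12 alternatives. Of 15 transcription factors 2 rose and 1 fell, and of 19 erythroid genes 1 rose and 0 fell. Itgb3 had 84 ± 18.5 CPM in Py230 and 31.7 ± 8.80 CPM in tumour-free libraries (SD, n = 4 each).

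In the stromal single cells there was 1 library per genotype, so no difference has a replicate check and intervals cover counting error only. Clusters were the authors' own, and 3191 PyMT and 2190 WT cells passed the filter on genes and mitochondrial UMIs. Sdpr, listed there as Cavin2, had 43.8 CPM over all kept PyMT cells (exact 95% Poisson interval 40.5 to 47.2) and 51.6 CPM over WT cells (47.2 to 56.2). It was highest in arterial and capillary endothelial-like cells, with 1951 CPM in PyMT and 1929 CPM in WT, and in sinusoidal endothelial-like cells, with 523 CPM in PyMT and 468 CPM in WT. In the leptin receptor-positive-like cells, the main stromal cell of the marrow, Sdpr had 12.6 CPM in PyMT (10.5 to 14.9; 132 UMIs) and 32.9 CPM in WT (27.4 to 39.3; 122 UMIs), a log2 ratio of -1.39. Sdpr was instead higher in PyMT in cartilage and tendon-like cells, with 17.3 CPM in PyMT and 6.40 CPM in WT, and in fibroblast-like cells, with 39.0 CPM in PyMT and 26.4 CPM in WT.

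**Figure D5:**
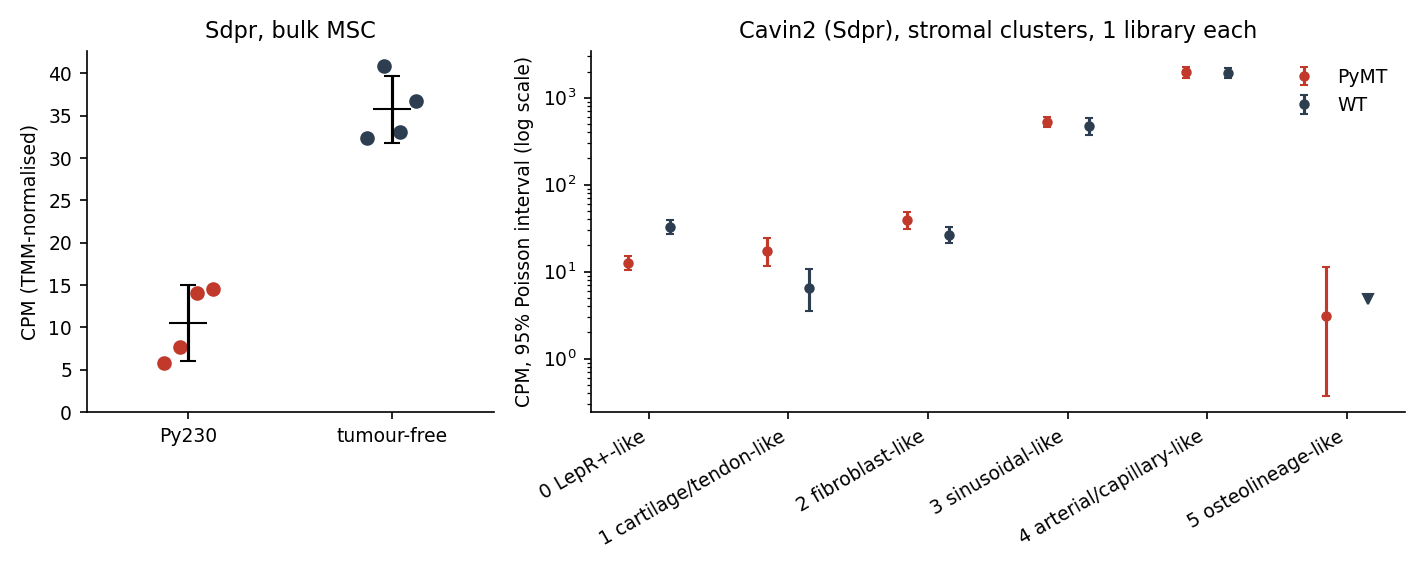
Left, Sdpr in bulk MSC (TMM-normalised CPM; points are libraries, bars mean ± SD, n = 4 each), with the Py230 libraries between 5.82 and 14.5 CPM and the tumour-free libraries between 32.3 and 40.9 CPM. Right, the same gene in stromal single-cell clusters, 1 library per genotype, on a log axis with exact 95% Poisson intervals; the triangle is the upper bound for a count of 0.

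The remaining members were low over all stromal cells. Pf4 had 77 UMIs (4.95 CPM, interval 3.91 to 6.19) in PyMT and 68 UMIs (6.65 CPM, 5.17 to 8.43) in WT, and the intervals overlapped. In the leptin receptor-positive-like cells it had 4.20 CPM (3.05 to 5.64; 44 UMIs) in PyMT and 7.56 CPM (5.02 to 10.9; 28 UMIs) in WT. In sinusoidal endothelial-like cells Pf4 had 21 UMIs in PyMT and 4 UMIs in WT, or 46.3 and 23.7 CPM. The log2 ratio there was 0.97, with an interval of -0.60 to 2.97. Over all kept cells, Itga2b had 88 UMIs (5.66 CPM) in PyMT and 79 UMIs (7.73 CPM) in WT. Gp9, Gp1bb, Gp5 and Treml1 had 8, 7, 9 and 2 UMIs in PyMT and 4, 6, 6 and 5 UMIs in WT, and Mfsd2b had 21 and 13. Itga2b was higher in fibroblast-like cells, with 19.8 CPM (41 UMIs, 8.38% of cells) in PyMT and 14.0 CPM (46 UMIs, 6.62%) in WT. In cartilage and tendon-like cells it had 7.24 CPM (13 UMIs) in PyMT and 12.8 CPM (28 UMIs) in WT. Ptprc had 3 UMIs in PyMT and 0 in WT stroma (exact upper bound 0.361 CPM). Ppbp, the platelet chemokine, had 72 UMIs in PyMT and 48 UMIs in WT stroma, and the part of platelet RNA in the Pf4 counts was not tested.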

How the data were processed

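HSPC and stromal cells were profiled by droplet 3' single-cell RNA sequencing and MSC by bulk RNA sequencing with a stranded total-RNA kit, per the labels' protocols. The authors deposited raw counts throughout: UMI counts per gene and cell, and read counts per gene and library. The submitters' processing notes name Cell Ranger 6.0.0, STAR 2.5.3a, Trim Galore and mm10, without roles. How reads were counted, with which strand setting, and how cells were filtered is not stated in the sources at hand. The deposited per-cell tables also hold the share of mitochondrial UMIs (a percent in HSPC, a fraction in stroma), the authors' cell cycle calls for HSPC and their clusters for stroma. Stromal cells with at least 500 genes and at most 10% mitochondrial UMIs were kept. No doublet caller was used and no doublets were removed here.

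UMIs were summed per mouse, or per mouse and class, and tested with edgeR 4.0.16 (R 4.3.3; TMM, filter on low counts, robust quasi-likelihood test, mouse as a term where classes came from the same mice), adjusted by Benjamini-Hochberg over all genes tested at a threshold of 0.05. Bulk libraries were tested likewise, 4 against 4. The HSPC mice carry replicate numbers in accession order, which pair nothing. HSPC were clustered with scanpy 1.11.5 on 2000 variable genes (30 components, 20 neighbours, Leiden resolution 0.6) without the members and Gata1, and clusters were named from at least 3 markers. The edgeR fits, the thinning, the exact intervals and the correlation ranking were tested on simulated data. The clustering, the stromal steps and the motif search were not. DESeq2 1.42.0, other size factors, no filter, classes set in thinned cells, a class threshold of 2 UMIs and each library left out were tried as alternatives.

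The members and gene lists were chosen with earlier results of these data known. All 8 members are named; of each list, at most 5 called genes per comparison and direction with the smallest p were eligible, and the 10 genes closest to Pf4 across cells; some of these are not reported here. Gp6 is in the bulk table and was not analysed here in HSPC. The depth of each table is given with its results, and exact intervals at the 95% level, for counting error only, are given for the share of Pf4-positive HSPC and for stromal levels; other shares of cells are given per mouse without one.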

Additional observations from a re-analysis of the deposited data

Results flagged for a closer look

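In the tumour-free bulk MSC libraries, Gp1bb had 1.453 CPM in 1 library, while the other 3 lay between 0.779 and 0.884 CPM. In the Py230 bulk libraries, Treml1 had 1.586 CPM in 1 library and 0 in the other 3. Each stood further from the rest of its group than the spread of the group allows at the 95% level, in 16 groups examined, and chance gives about 1 such value in 20 groups. Both rest on few reads, and neither gene was called in the bulk comparison.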

How the results depend on the processing

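All 8 members stayed lower in PyMT HSPC under every alternative run. Their median log2 ratio, -1.10 as reported, was -0.86 in cells thinned to 3000 UMIs, -0.86 as a mean of per-cell CPM, and between -1.30 and -0.94 with 1 mouse left out. The numbers of genes called moved more. Between PyMT and WT HSPC, the 165 genes became 628 with the DESeq2 Wald test, 972 in thinned cells (an alternative chosen after seeing the data), and 184 to 1932 with 1 mouse left out, where the lone mouse of a genotype is assumed to vary like the others. For Gata1-positive cells, 3361 became 2239 with DESeq2, 1608 with classes set in thinned cells, and 2287 to 3555 with 1 mouse left out. For Procr-positive cells, 2671 became 1429 with DESeq2, 1717 with thinned classes, 1689 with a threshold of 2 UMIs, and 2066 to 2357 with 1 mouse left out. S phase gave 4327 genes (3446 to 3994 with 1 mouse left out) and G2M phase 5667 (4721 to 5549). In bulk MSC, 771 became 377 to 682 with 1 library left out. With the replicate number as a block, it became 413; same-numbered bulk libraries had correlations of -0.39, -0.13, -0.20 and 0.02 between their deviations, so they share only a number. The causes were not tested, and no called value turned its direction. Of the single genes named, 878 called values kept their call and 99 lost it, 133 values without a call stayed so and 6 gained one; of untested values, 47 stayed within the spread between mice or the counting interval and 17 moved. For members, 8 of 72 values lost their call in Procr-positive cells and none in bulk MSC. Sdpr in leptin receptor-positive-like stroma was -1.39 among kept cells and -1.35 over every deposited cell. Depth limits Treml1, Gp9 and Pf4 in bulk MSC, which failed the filter on low counts, and the 7 members other than Sdpr in stroma.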
